A study of Mus musculus with 4 samples.

Results

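The cytosolic ribosomal protein genes were examined in mBMSCs (mouse bone marrow stromal cells) after treatment with GA. They were chosen by symbol alone: all protein-coding genes named Rpl or Rps followed by a digit, together with Rpsa, Rplp0, Rplp1 and Rplp2, without pseudogenes, the Rps6k kinases and Rps19bp1. This gave 85 of the 47069 genes in the table, namely 46 genes of the large subunit, 31 genes of the small subunit and 8 paralogs (Rpl10l, Rpl22l1, Rpl36al, Rpl39l, Rpl3l, Rpl7l1, Rps27l and Rps27rt). The cells came from the tibia and femur of wild-type C57BL/6J mice aged 8 weeks, were at passage P1, and received GA (50 μM) plus DEX or DMSO plus DEX for 3 d, with 2 libraries in each group. GA is ginkgolic acid, an inhibitor of sumoylation that the paper describes as also reported to inhibit histone acetyltransferase. Neither activity was measured in these libraries. DEX is dexamethasone, a synthetic glucocorticoid given at 1 μM to both groups, so the comparison is of GA with its solvent on a DEX background. Whether libraries of one group stem from different mice or cultures is not stated, and p-values therefore cover only differences among these 4 libraries, which may be technical.

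A cytosolic ribosome is built from a small subunit, which reads the mRNA, and a large subunit, which forms the peptide bond. Most ribosomal proteins are needed in about the same amount, and their mRNAs are among the most abundant of a growing cell. Transcription of these mRNAs begins at a C followed by a run of pyrimidines, the terminal oligopyrimidine (TOP) motif, through which mTORC1 and the RNA-binding protein LARP1 set their translation. The promoters are known for binding sites of ETS-family factors, YY1 and Sp1.

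The stretch around the start of transcription is shown for the 3 genes with the largest called decreases, for the 3 genes called higher and for Rpl12, which stood apart in 1 library. Each window is the sense strand from 30 bases before the annotated start to 30 bases from it onward, and the capitals mark its longest unbroken run of C and T.
Rpl13a: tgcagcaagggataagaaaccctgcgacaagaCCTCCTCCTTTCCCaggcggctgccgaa
Rpl22l1: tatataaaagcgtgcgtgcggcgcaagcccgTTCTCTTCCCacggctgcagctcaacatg
Rpl38: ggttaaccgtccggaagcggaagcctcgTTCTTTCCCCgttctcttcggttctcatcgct
Rpl39l: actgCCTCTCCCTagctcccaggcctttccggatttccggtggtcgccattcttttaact
Rpl9: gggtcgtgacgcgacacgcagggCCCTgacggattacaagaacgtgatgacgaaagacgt
Rplp2: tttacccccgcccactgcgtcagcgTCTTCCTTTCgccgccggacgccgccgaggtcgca
Rpl12: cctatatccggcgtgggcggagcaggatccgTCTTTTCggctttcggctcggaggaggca

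The sequences are from RefSeq on build GRCm38.p6, where the windows lie at chr7:45128716-45128775 (minus strand, Rpl13a), chr3:28805478-28805537 (plus strand, Rpl22l1), chr11:114668550-114668609 (plus strand, Rpl38), chr16:10170198-10170257 (plus strand, Rpl39l), chr5:65391402-65391461 (minus strand, Rpl9), chr7:141447621-141447680 (plus strand, Rplp2) and chr2:32961682-32961741 (plus strand, Rpl12). The longest run had 14 bases in Rpl13a, 10 bases in Rpl22l1, Rpl38 and Rplp2, 9 bases in Rpl39l, 7 bases in Rpl12 and 4 bases in Rpl9. In Rpl13a, Rpl22l1, Rpl38, Rplp2 and Rpl12 it began within 5 bases of the annotated start, whereas in Rpl39l it lay 26 bases upstream. An annotated start can differ from the start used in these cells.

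RefSeq promoters of 300 bases, from 250 bases before to 50 bases after the annotated start, were matched by symbol for 65 of the 85 genes. A run of at least 8 C or T bases within 30 bases of the start was found in 35 of the 65 genes (53.8%), compared with 25.8% of the 27025 genes with a promoter in the table. The ETS core CCGGAAG, searched on both strands of the 300 bases, was present in 26 genes (40.0%) against 9.93% of all genes. For the Sp1 box GGGCGG the shares were 61.5% and 38.2%, and for the YY1 core AAGATGGC 9.23% and 3.19%. TATAAA occurred in 10.8% of the ribosomal protein genes and in 15.7% of all genes. These matches describe the letters in the windows and overlap one another in some promoters.

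The measured values were FPKM, which divide the fragments of a gene by its length in kilobases and by the size of the library. The steps between low FPKM values put the depth at 31069538 and 25717834 reads for DMSO plus DEX and at 21559951 and 24611800 reads for GA plus DEX. The ribosomal protein genes took 3.80% and 3.92% of the reads in DMSO plus DEX and 3.85% and 3.45% in GA plus DEX. Their summed FPKM was 51748 and 53259 in DMSO plus DEX and 52353 and 46807 in GA plus DEX. Depth was not limiting for most of them, since 77 of the 85 genes had more than 1000 reads in every library.

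Levels in FPKM spread widely among genes whose proteins are mostly used in about equal numbers. The ranking that follows is by FPKM, which depend on the gene length behind them. That length is not stated, and was recovered as 476 bases for Rps12 and 1861 bases for Rpsa. In DMSO plus DEX 1 Rps12 had 17172 reads and 1161 FPKM, and Rpsa 29629 reads and 512 FPKM. The part of gene length in the ranking was not tested. The most abundant mRNAs of the large subunit were Rplp0, the base of the lateral stalk that recruits elongation factors, with a mean over the 4 libraries of 2131 FPKM, its stalk partner Rplp1 (1969 FPKM), Rpl41, the shortest ribosomal protein (1675 FPKM), and Rpl10, which joins the large subunit late in its assembly (1102 FPKM). In the small subunit they were Rps2 (1509 FPKM), Rps14 (1322 FPKM), Rps12 (1098 FPKM) and Rps26 (1065 FPKM). The median gene of the large subunit was at 586, 591, 589 and 527 FPKM in DMSO plus DEX 1 and 2 and GA plus DEX 1 and 2, and the median gene of the small subunit at 688, 696, 684 and 587 FPKM in the same order. GA plus DEX 2 was thus the lowest library for both subunits. The order of the genes was much the same in both groups (Pearson's r = 0.987 and Spearman's rho = 0.969 between group means of log2 levels, across 75 genes that share libraries and lengths, Rpl12 left out).

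A few members were listed far below the rest in every library, and Rpl12, given further on, in all but DMSO plus DEX 2. Rpl24 was at 0.186 and 0.674 FPKM in DMSO plus DEX and at 0.0894 and 0.548 FPKM in GA plus DEX, from 9 reads or fewer per library. Rpl23a had 38.7, 49.1, 43.8 and 34.6 FPKM in DMSO plus DEX 1 and 2 and GA plus DEX 1 and 2, and Rpl35 had 95.7, 112, 92.6 and 80.2 FPKM. In the GENCODE annotation, 47.0% of the exon length of Rpl24 is shared with Gm28037 on the same strand. For Rpl23a 59.7% is shared with Tlcd1 and for Rpl35 66.2% with Wdr38, both on the opposite strand. Gm28037 was at 0 FPKM in every library. The highest levels of Tlcd1 and Wdr38 were 19.7 and 0.201 FPKM, both in GA plus DEX 2. Smaller shares were also found in abundant members, such as Rpl13a (29.4%, same strand, mean 785 FPKM) and Rpl31 (25.3%, opposite strand, mean 780 FPKM). Rpl12 shares 1.6% with Lrsam1 and 3.6% with Snora65. How the authors treated reads that fall on more than 1 gene or place in the genome is not given in the sources used here, and the part of such reads in the levels was not tested. Of the 85 genes, 55 have copies in the table whose symbol names them as pseudogenes of that gene. The copies so named of any 1 gene held at most 163 reads in a library, and copies under other names were not counted.

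To ask whether GA changed the ribosomal protein mRNAs, log2(FPKM + 1) was compared between the groups with limma for the 12174 genes whose FPKM averaged 1 or more, and a gene was called at a Benjamini-Hochberg adjusted p under 0.05 over all of them. The test included 81 of the 85 genes (45 large, 31 small and 5 paralogs). As deposited, 3 genes were called higher in GA plus DEX, against 46.3% of all genes tested, and 9 genes were called lower, against 11.9% of all genes tested. The share called lower was close to that background, and the share called higher was far under it. The other 69 genes were not called. The median log2 fold change was -0.08 for the large subunit, -0.07 for the small subunit and 0.19 for all genes tested. Of the 81 genes, 78 lay below the median of all genes. Within 0.2 of no change on the log2 scale were 67 of the 81 genes (82.7%).

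**Figure D1:**
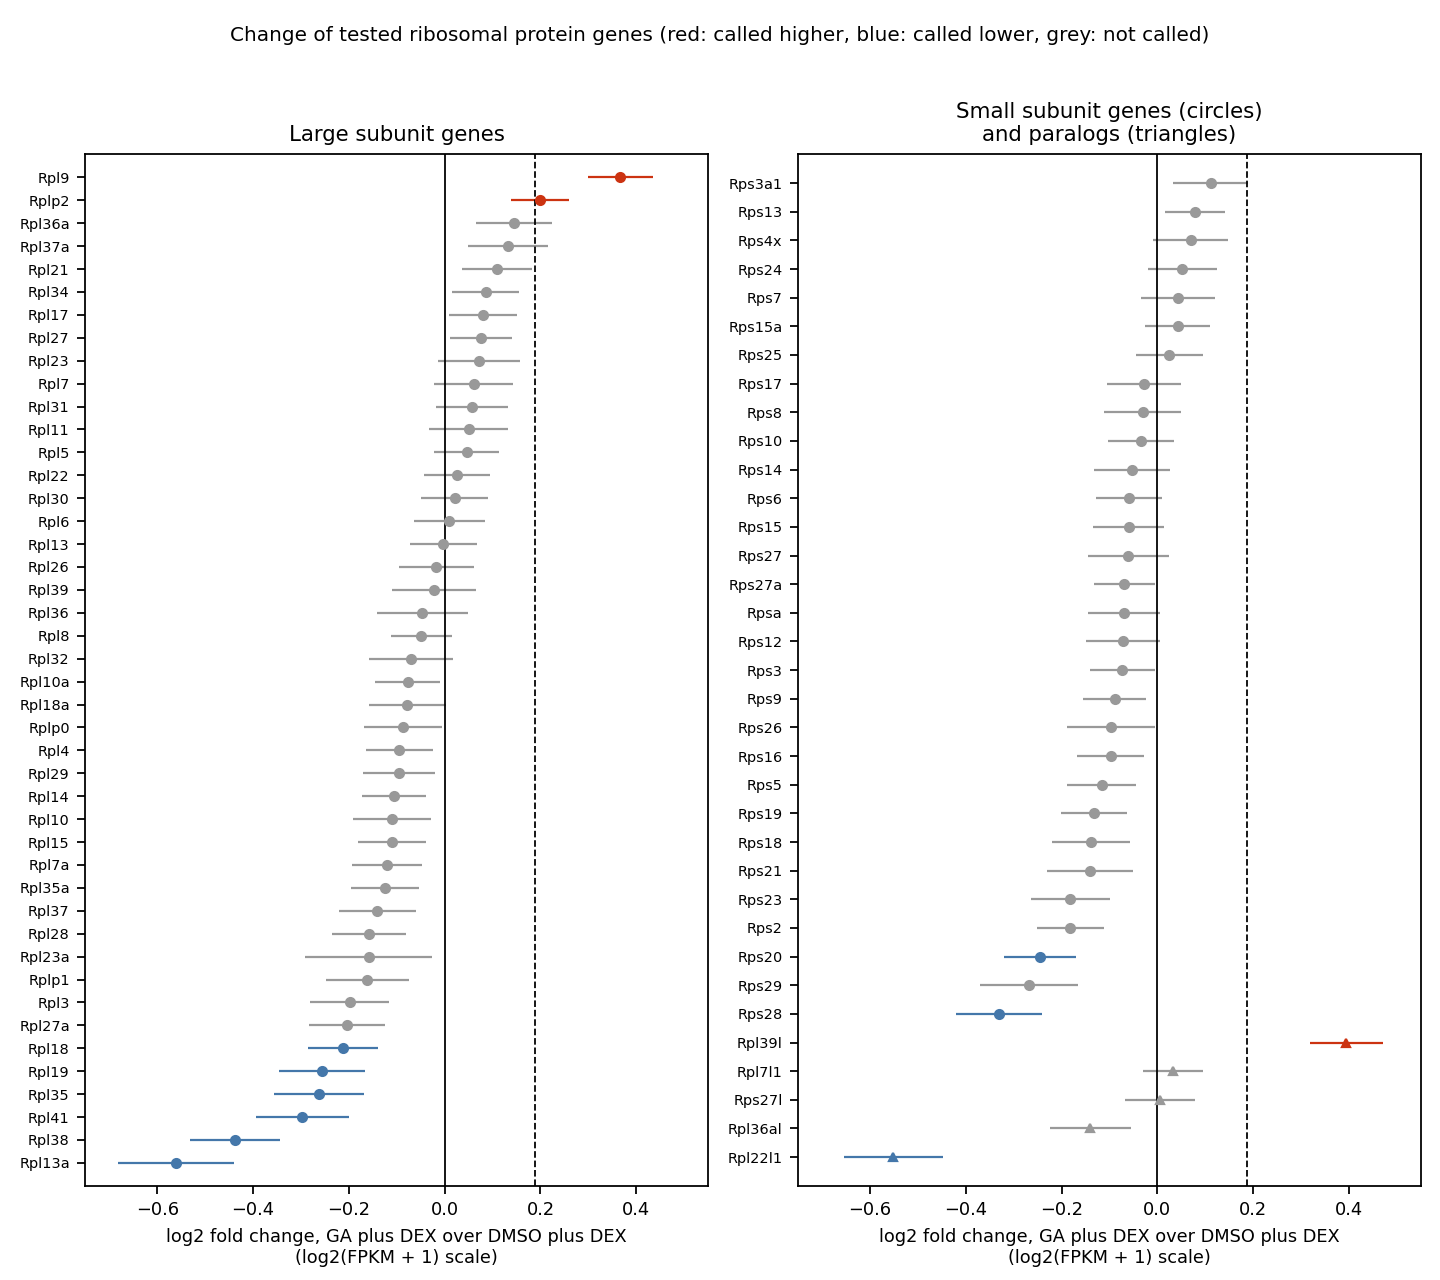
Log2 fold change (GA plus DEX over DMSO plus DEX, on the log2(FPKM + 1) scale) of tested ribosomal protein genes, with bars of 1 standard error from limma, 2 libraries per group. The solid line is no change and the dashed line the median of all genes tested (0.19); most genes sit between -0.2 and 0.2, and Rpl12 (-2.02) is left out of the plot.

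By their single values, both GA plus DEX libraries lay below both DMSO plus DEX libraries for 28 of the 81 genes (18.3% of all genes tested), and above them for 6 genes (62.5% of all genes tested). In the remaining 47 genes the groups overlapped. The quartiles of the log2 fold change were -0.16 and 0.05 for the large subunit and -0.12 and -0.002 for the small subunit, a narrower spread than the quartiles of all genes, at -0.01 and 0.39.

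These values are relative to the reads of each library, and that total was not alike in the groups. The 10 most abundant genes took 23.7% and 22.3% of the reads in DMSO plus DEX and 12.3% and 13.4% in GA plus DEX. Most of this was Col1a1 and Col1a2, the chains of type I collagen, at 14.2% and 12.9% against 5.82% and 6.84%. When libraries were scaled by the median of ratios, which sets the typical gene to no change, the median log2 fold change became -0.30 for the large subunit and -0.29 for the small subunit, and that of all genes -0.01. Under this scaling limma called 57 of the 81 genes lower (24.8% of all genes tested) and 0 higher (22.2% of all genes tested), with 0 higher at an unadjusted p under 0.05 also. By subunit, 30 large and 23 small subunit genes were called lower, with 4 paralogs. With FPKM recomputed without the 10 most abundant genes, 47 genes were called lower and 2 higher. Both scalings apply 1 factor to each library, so they could hardly change the position of the ribosomal protein genes below the typical gene. Quantile normalization, which can change it, gave a median log2 fold change of -0.15, against -0.04 for all genes. Of the 81 genes, 62 then lay below the median of all genes. How many genes were called lower depended on the scaling, and none of the scalings measures an absolute amount of mRNA.

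**Figure D2:**
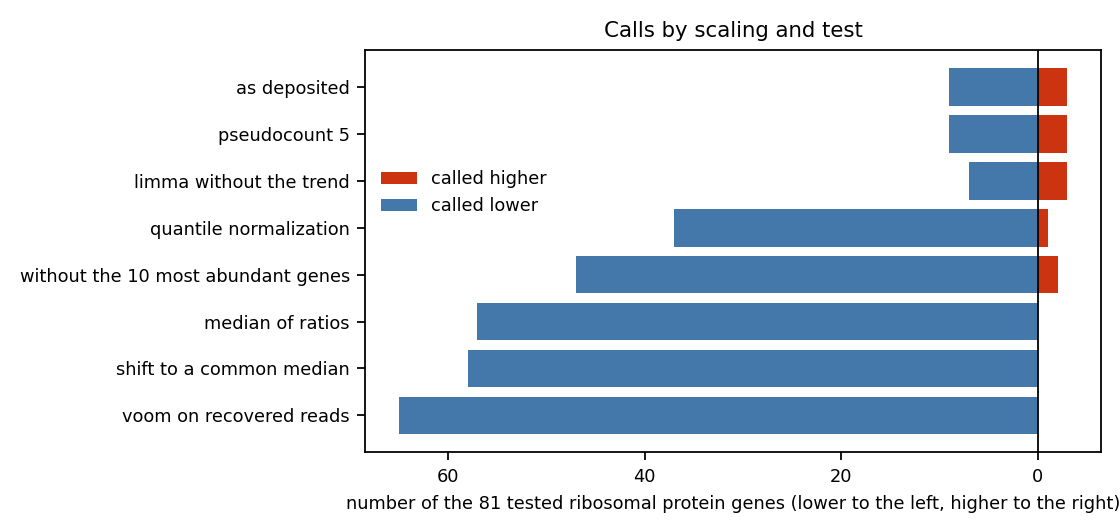
Number of the 81 tested ribosomal protein genes called lower (bars to the left) and higher (bars to the right) in GA plus DEX by limma, for the values as deposited and for 7 alternatives. The deposited values gave 9 lower and 3 higher, and the median of ratios gave 57 lower and 0 higher.

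The 2 GA plus DEX libraries differed from each other in these genes. All 81 genes were lower in GA plus DEX 2 than in GA plus DEX 1, compared with 53.2% of all genes tested. The median difference between the libraries was -0.16 on the log2 scale for 75 genes of both subunits and -0.01 for all genes tested. Between the DMSO plus DEX libraries the median difference was 0.02 for both sets. Without GA plus DEX 1, limma called 28 of the genes lower and 3 higher and without GA plus DEX 2 it called 4 lower and 9 higher. Leaving out a control instead gave 6 lower and 2 higher without DMSO plus DEX 1, and 3 lower and 2 higher without DMSO plus DEX 2. The genes moved together between the 2 GA plus DEX libraries, so they are not independent measures of the response to GA. Between the DMSO plus DEX libraries, 34 of the 81 genes were lower in DMSO plus DEX 2, against 5026 of the 12174 genes tested.

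Large and small subunits were compared through their mean log2(FPKM + 1) in each library. Without Rpl12, the large subunit mean was 9.10 and 9.12 in DMSO plus DEX and 9.14 and 8.97 in GA plus DEX, and the small subunit mean was 9.34 and 9.36 in DMSO plus DEX and 9.36 and 9.20 in GA plus DEX. The large subunit lay below the small one by nearly the same amount everywhere. The difference, large minus small, was -0.24 and -0.23 in DMSO plus DEX and -0.23 and -0.23 in GA plus DEX. GA plus DEX minus DMSO plus DEX was -0.06 for the large and -0.07 for the small subunit, with a spread between libraries of 0.09 and 0.08 (pooled SD, n = 2 per group). The change in the difference was 0.007, with a spread between libraries of 0.003, and it was -0.04 with a spread of 0.05 when Rpl12 was included (pooled SD, n = 2 per group). Neither was tested.

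**Figure D3:**
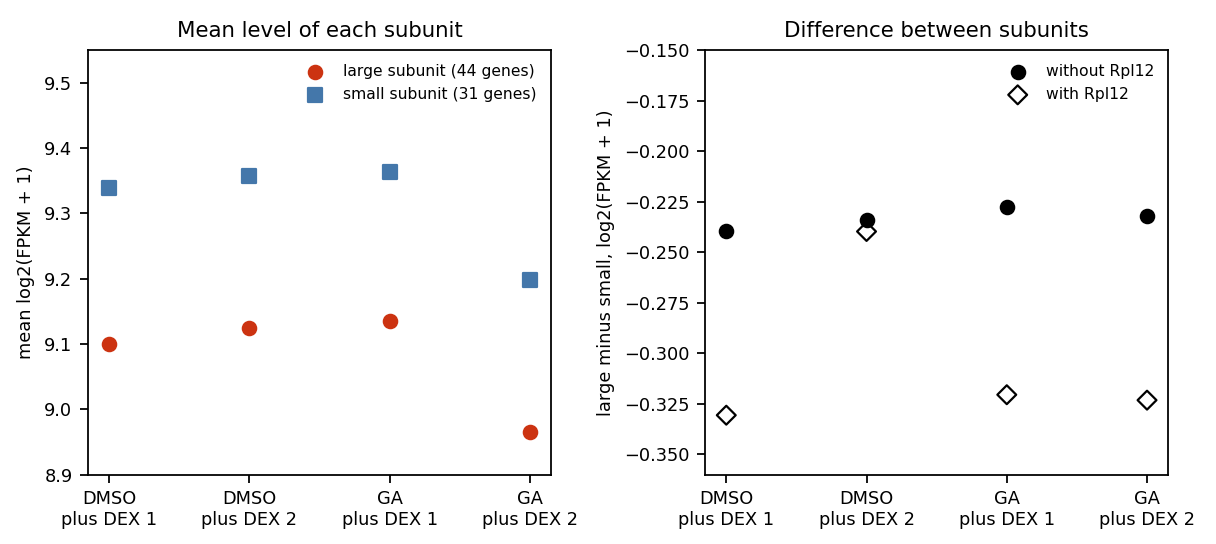
Left, mean log2(FPKM + 1) of 44 large subunit genes and 31 small subunit genes in each library, on an axis that does not start at 0; right, the large minus small difference in log2(FPKM + 1) with and without Rpl12. Without Rpl12 the difference stays between -0.24 and -0.23 in the 4 libraries, while both subunits are lowest in GA plus DEX 2.

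The gene called lower with the largest change was Rpl13a, a large subunit protein also known for silencing the translation of inflammatory mRNAs in human myeloid cells. It had 830.5 and 1044 FPKM in DMSO plus DEX and 684 and 582 FPKM in GA plus DEX. The groups did not overlap, and the ratio of the means was 0.675 (log2 fold change -0.56, SE 0.12, limma adjusted p = 0.00595). Over the fits without one library its log2 fold change ranged from -0.40 without DMSO plus DEX 2 to -0.73 without DMSO plus DEX 1, and by the median of ratios it was -0.78.

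Rpl38, which in the mouse embryo is needed for the translation of a set of Hox mRNAs, had 721 and 728 FPKM in DMSO plus DEX and 589 and 486 FPKM in GA plus DEX (log2 fold change -0.44, SE 0.09, limma adjusted p = 0.00555). The DMSO plus DEX libraries agreed closely, and both GA plus DEX libraries lay below them. Rpl41 had 1736 and 1957 FPKM in DMSO plus DEX and 1605 and 1401 FPKM in GA plus DEX (log2 fold change -0.30, SE 0.10, limma adjusted p = 0.0327). A further 3 large subunit genes were called lower with smaller changes, namely Rpl35 and Rpl19, whose proteins lie near the exit of the peptide tunnel (both -0.26), and Rpl18 (-0.21), with limma adjusted p from 0.0408 to 0.0447. All 4 of Rpl41, Rpl35, Rpl19 and Rpl18 lost their call without DMSO plus DEX 2 (limma adjusted p from 0.141 to 0.300) and without GA plus DEX 2 (0.0650 to 0.169). Without DMSO plus DEX 1 the call was lost for Rpl41, Rpl19 and Rpl18 (limma adjusted p from 0.0789 to 0.121).

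In the small subunit 2 genes were called lower. Rps28, which lies close to the path by which mRNA leaves the ribosome, had 959 and 1060 FPKM in DMSO plus DEX and 860.4 and 746 FPKM in GA plus DEX (log2 fold change -0.33, SE 0.09, limma adjusted p = 0.0162). For Rps20, a protein of the head of the small subunit, the values were 363 and 371 FPKM against 331 and 289 FPKM (log2 fold change -0.24, SE 0.07, limma adjusted p = 0.0250). Neither overlapped between the groups. Without DMSO plus DEX 2, Rps28 had a limma adjusted p of 0.150 and Rps20 of 0.123, and Rps20 was not called either without DMSO plus DEX 1 (limma adjusted p = 0.0876) or without GA plus DEX 2 (limma adjusted p = 0.0557). Rps29 (727 and 749 FPKM against 684 and 549 FPKM, limma adjusted p = 0.0553) and Rps2 (1603 and 1606 FPKM against 1443 and 1385 FPKM, limma adjusted p = 0.0574) did not pass the threshold. As deposited no small subunit gene was called higher by limma, none had an unadjusted p under 0.05 in that direction, and voom on the recovered reads called 0, whereas 2 were called higher without GA plus DEX 2. Positive values that did not pass the test included those of Rps3a1 (0.11), Rps13 (0.08) and Rps4x (0.07).

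**Figure D4:**
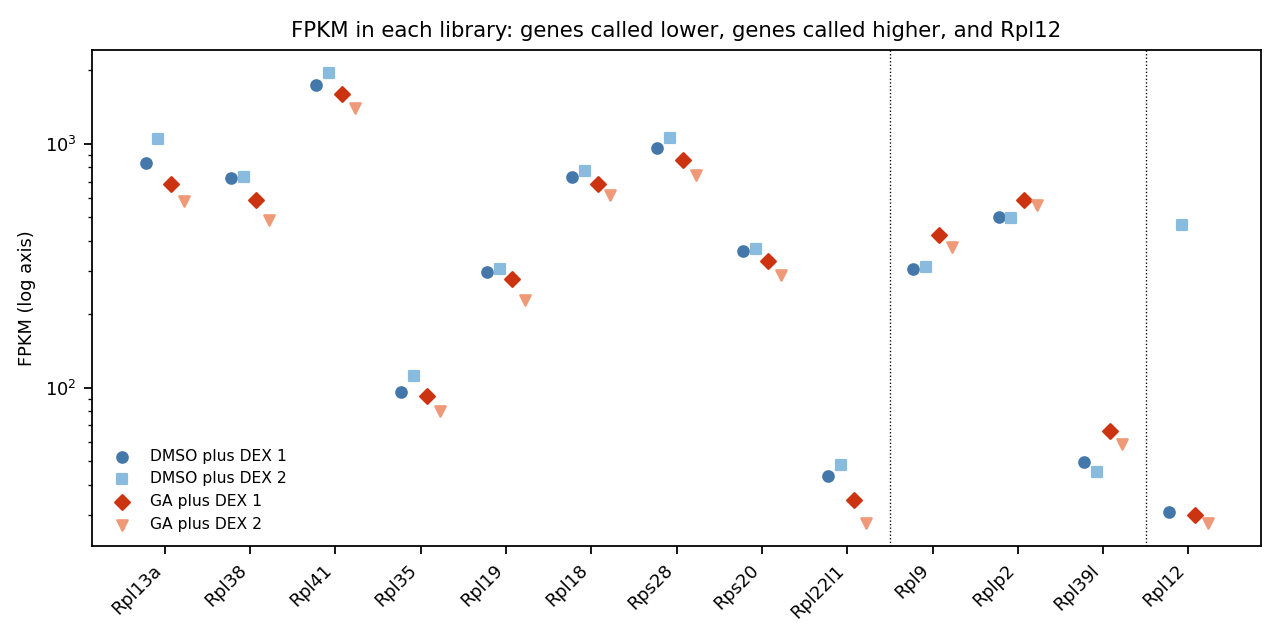
FPKM in each of the 4 libraries, on a log axis, for the 9 genes called lower (left), the 3 genes called higher (middle) and Rpl12 (right). The 2 libraries of each group lie apart from those of the other group in the called genes, and for Rpl12 DMSO plus DEX 2 alone lies at 465 FPKM.

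Rpl9, a large subunit protein near the base of the stalk, was the only gene of either subunit besides Rplp2 called higher as deposited. Its values were 307 and 312 FPKM in DMSO plus DEX and 421 and 379 FPKM in GA plus DEX, without overlap (log2 fold change 0.37, SE 0.07, limma adjusted p = 0.00292). After scaling by the median of ratios its log2 fold change was 0.15 (limma adjusted p = 0.102). Rpl36a (0.15) and Rpl37a (0.13) followed among the large subunit genes as deposited, neither being called.

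In the stalk, which consists of Rplp0 with Rplp1 and Rplp2 and stands next to Rpl12, the acidic protein Rplp2 had 499.8 and 496 FPKM in DMSO plus DEX and 586 and 559 FPKM in GA plus DEX (log2 fold change 0.20, SE 0.06, limma adjusted p = 0.0247). This direction depended on the scaling, with a log2 fold change of -0.02 by the median of ratios (limma adjusted p = 0.786), and the call was lost without DMSO plus DEX 1 (limma adjusted p = 0.165) and without DMSO plus DEX 2 (limma adjusted p = 0.182). Its partner Rplp1 had 1989 and 2169 FPKM against 1946 and 1773 FPKM (log2 fold change -0.16, limma adjusted p = 0.144), and Rplp0 had 2174 and 2215 FPKM against 2165 and 1971 FPKM (log2 fold change -0.09, limma adjusted p = 0.383). As deposited, Rplp2 was thus the one stalk protein called, while by the median of ratios Rplp0 (log2 fold change -0.31, limma adjusted p = 0.0148) and Rplp1 (-0.38, limma adjusted p = 0.00622) were called lower and Rplp2 was not called.

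Rpl12 had 30.9 FPKM in DMSO plus DEX 1, 465 FPKM in DMSO plus DEX 2, and 30.1 and 28.0 FPKM in GA plus DEX, from 1109, 13849, 751 and 796 reads. The median gene of the large subunit was at 586, 591, 589 and 527 FPKM in the same order. Rpl12 was thus far below it in every library but DMSO plus DEX 2. Which level reflects the mRNA was not tested. One control library alone set the log2 fold change of Rpl12 of -2.02 (SE 1.01, limma adjusted p = 0.121, and by voom on the recovered reads, adjusted p = 0.0393). Without DMSO plus DEX 2 the log2 fold change was -0.09 (limma adjusted p = 0.424), and without DMSO plus DEX 1 it was -3.96 (limma adjusted p = 2.23e-09). Over all genes tested, 17 were more than 4-fold apart between the DMSO plus DEX libraries (1 FPKM added to each value) with over 10 FPKM in one of them, each of them higher in DMSO plus DEX 2, and 0 were so between the GA plus DEX libraries. These included both mitochondrial rRNAs, with mt-Rnr2 at 4.11 and 222 FPKM in DMSO plus DEX and at 8.50 and 7.58 FPKM in GA plus DEX, and 6 genes named Rrp for ribosomal RNA processing, with Rrp1 at 3.08 and 67.9 FPKM against 5.13 and 4.84 FPKM. Together the 17 genes took 0.309% of the reads in DMSO plus DEX 2 and from 0.0121% to 0.0150% in the other libraries. The part of whatever set this library apart in the value of Rpl12 was not tested.

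Rpl5 and Rpl11, which carry the 5S rRNA into the large subunit and bind Mdm2 when ribosome assembly is disturbed, did not pass the test. Rpl5 had 509 and 484 FPKM in DMSO plus DEX and 535 and 491 FPKM in GA plus DEX, and Rpl11 had 745 and 747 FPKM against 832 and 717 FPKM, the groups overlapping in both. Rps6, the substrate of the S6 kinases downstream of mTORC1, had 646 and 636 FPKM against 646 and 587 FPKM. Rps27a, made as a fusion with ubiquitin, had 491 and 487 FPKM against 484 and 449 FPKM, and Rpsa, also known as a laminin receptor, had 512 and 530.0 FPKM against 529 and 467 FPKM. The log2 fold changes of these 5 genes lay between -0.07 and 0.05 as deposited.

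The paralogs included the member of the whole family with the largest increase called and the one with the second largest decrease called. Rpl22l1, whose level is held down by its counterpart Rpl22 in the mouse, had 43.3 and 48.4 FPKM in DMSO plus DEX and 34.4 and 27.7 FPKM in GA plus DEX (log2 fold change -0.55, SE 0.10, limma adjusted p = 0.00301). It was called lower under every alternative tried. Rpl22 itself had 198 and 186 FPKM against 206 and 186 FPKM (log2 fold change 0.03, limma adjusted p = 0.759). Rpl39l, a paralog of Rpl39 known from mouse male germ cells, had 49.7 and 44.9 FPKM in DMSO plus DEX and 66.2 and 58.8 FPKM in GA plus DEX (log2 fold change 0.39, SE 0.08, limma adjusted p = 0.00356). By the median of ratios its log2 fold change was 0.18 (limma adjusted p = 0.0990). Rpl39 had 439.8 and 474 FPKM against 488 and 414 FPKM, the groups overlapping. Rpl22l1 and Rpl39l thus moved in opposite directions as deposited while their abundant counterparts were not called.

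Rpl36al (146 and 169 FPKM against 150.0 and 135 FPKM), Rps27l, a target of p53 (272 and 248 FPKM against 273 and 249 FPKM), and Rpl7l1 (28.9 and 30.8 FPKM against 31.6 and 29.5 FPKM) were not called as deposited. Rps27l and Rpl7l1 had log2 fold changes of 0.005 and 0.03 as deposited and of -0.22 and -0.18 by the median of ratios, and Rpl36al was at -0.14 and -0.36. Under this scaling all 3 were called lower (limma adjusted p = 0.0469 for Rps27l, 0.0337 for Rpl7l1 and 0.00581 for Rpl36al). Rpl10l was listed at 0 in all libraries. Rpl3l, known from heart and skeletal muscle, and Rps27rt had at most 3 reads in any library and were not tested.

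Of the 22 genes whose human counterparts are mutated in Diamond-Blackfan anaemia, 1 was called higher (Rpl9) and 4 lower (Rps28, Rpl35, Rps20 and Rpl18) as deposited, against 46.3% and 11.9% of all genes tested, with a median log2 fold change of -0.04. Scaling by the median of ratios gave 14 called lower and 0 higher, with 0 higher at an unadjusted p under 0.05, against 24.8% and 22.2% of all genes tested. The 24 genes of both subunits with a snoRNA annotated within an exon had a median of -0.07, and the 52 others a median of -0.06. Across 75 genes of both subunits, the log2 fold change had a Spearman's rho of -0.14 with the mean level and of 0.17 with gene length. The medians of these sets differed by less than the GA plus DEX libraries did from each other.

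Ribosomal proteins that the symbol rule does not reach include Fau and Rack1. Fau, the source of the small subunit protein eS30, had 716 and 820.0 FPKM in DMSO plus DEX and 718 and 653 FPKM in GA plus DEX. Rack1, a scaffold on the small subunit, had 540.0 and 542 FPKM against 518 and 473 FPKM. Neither was called by limma as deposited (adjusted p = 0.144 for Fau and 0.137 for Rack1), and both were called lower by the median of ratios (log2 fold change -0.38 for Fau and -0.35 for Rack1).

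The lists of other genes that follow are read against the same backgrounds, 46.3% of all genes tested called higher and 11.9% called lower as deposited, and 22.2% and 24.8% by the median of ratios. Other mRNAs with a TOP motif, a list of 22 that includes both, had a median log2 fold change of 0.04. As deposited 2 were called higher, the initiation factor subunit Eif3l (50.6 and 50.4 FPKM against 63.6 and 60.0 FPKM, log2 fold change 0.29) and the poly(A)-binding protein Pabpc1 (484 and 499 FPKM against 559 and 563 FPKM, 0.19), and 2 lower, the elongation factor Eef2 (1153 and 1268 FPKM against 1028 and 1037 FPKM, -0.23) and Eif4b (115 and 121 FPKM against 105.1 and 104.9 FPKM, -0.17). By the median of ratios the counts were 0 higher and 9 lower, Pabpc1 being at -0.03 and Eif3l at 0.07. The counts as deposited moved with single libraries, to 10 higher and 2 lower without GA plus DEX 2, 2 higher and 5 lower without GA plus DEX 1, and 1 higher and 0 lower without either DMSO plus DEX library. As in the ribosomal protein genes, 20 of the 22 lay below the median of all genes as deposited.

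The remaining translation machinery also had medians between those of the ribosomal protein genes and of all genes. Of 41 initiation factors, 16 were called higher and 1 lower (Eif4b), with a median of 0.07, and by the median of ratios 4 were higher and 18 lower. The share called higher as deposited was under the 46.3% of all genes tested. The number called higher was 10 without DMSO plus DEX 1 and 10 without GA plus DEX 1. The largest rises were in Denr, which recycles and re-initiates ribosomes (25.8 and 23.3 FPKM against 37.4 and 33.1 FPKM, log2 fold change 0.50), the helicase Eif4a2 (0.48) and Eif5 (0.45), each also called higher by the median of ratios. Of 15 tested genes listed with the elongation and release factors, not all being such factors, 5 were called higher and 1 lower (Eef2). Among the higher ones were Eef2k, the kinase of Eef2 (0.29), Eef1e1 (0.29) and Eif5a (0.16). Without GA plus DEX 1 or either DMSO plus DEX library 2 were called higher, and without GA plus DEX 2 the number was 4. By the median of ratios 0 were higher, with 0 at an unadjusted p under 0.05 too, and 6 were lower, Eif5a being at -0.06.

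Factors that assemble the ribosome had a median between those of the ribosomal protein genes and of all genes tested. Of 92 ribosome biogenesis factors, 39 were called higher and 0 lower by limma (2 lower at an unadjusted p under 0.05), with a median of 0.14, and by the median of ratios 9 were higher and 18 lower. The share called higher as deposited was close to that of all genes tested (46.3%), and the share called lower was under it (11.9%). Voom on the recovered reads called 8 higher and 23 lower. The RNA helicase Ddx51 had 12.1 and 11.9 FPKM in DMSO plus DEX and 18.9 and 19.8 FPKM in GA plus DEX (log2 fold change 0.64), followed by Rcl1 (0.62) and Fcf1 (0.52), which act in processing of the small subunit rRNA. Rrp1, Rrp1b and Rrp9 belong to this list and stood apart in DMSO plus DEX 2 as Rpl12 did. Without them the lowest value of the list was 0.276 FPKM in DMSO plus DEX 1 and 3.41 FPKM in DMSO plus DEX 2. In GA plus DEX it was 0.322 and 0.479 FPKM. Rrp1, Rrp1b and Rrp9 are thus not all of the list that stood apart in that control library. Without these 3 genes the counts were 39 and 0, and without DMSO plus DEX 2 they were 31 and 0. Without DMSO plus DEX 1, which leaves the library that stood apart as the only control, 28 were called higher and 7 lower.

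Of 35 genes of RNA polymerases I and III, which make the rRNAs, 11 were called higher and 1 lower as deposited, against 46.3% and 11.9% of all genes tested, and by the median of ratios 2 were higher and 8 lower. Without either DMSO plus DEX library 7 were called higher. Polr3d, a subunit of RNA polymerase III, had 19.9 and 20.3 FPKM in DMSO plus DEX and 12.05 and 12.8 FPKM in GA plus DEX (log2 fold change -0.65, SE 0.06, limma adjusted p = 0.000106), while Taf1b, of the RNA polymerase I selectivity factor, was at 0.51, the initiation factor Rrn3 at 0.35 and Gtf3c3 at 0.34. Polr3d and Taf1b were also called by the median of ratios in the same directions, whereas Rrn3 (limma adjusted p = 0.0888) and Gtf3c3 (limma adjusted p = 0.158) were not called. Among 28 chaperones, importers and processing enzymes of ribosomal proteins (26 tested), 12 were called higher, led by the importin Ipo9 (54.9 and 58.4 FPKM against 102.7 and 108 FPKM, 0.89) and the methionine aminopeptidase Metap1 (0.65), and 2 lower, the ribosomal deubiquitinase Usp16 (-0.19) and the assembly factor Zfp622 (-0.16). The share called higher was close to the 46.3% of all genes tested, and by the median of ratios 2 were higher and 4 lower. None was called lower without DMSO plus DEX 1 or without GA plus DEX 2.

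The regulators of the TOP mRNAs included larger changes. Of 33 genes of mTORC1 and of TOP control tested, 21 were called higher and 1 lower, against 46.3% and 11.9% of all genes tested, with a median of 0.32. By the median of ratios 9 were higher and 5 lower, against 22.2% and 24.8%. Deptor, an inhibitor of mTOR, had 6.21 and 5.94 FPKM in DMSO plus DEX and 18.8 and 18.5 FPKM in GA plus DEX (log2 fold change 1.47, SE 0.06, limma adjusted p = 1.73e-06). Larp1b, a relative of the TOP-binding Larp1, had 8.16 and 8.55 FPKM against 18.6 and 20.1 FPKM (1.12), and Sesn3, which restrains mTORC1, 7.06 and 7.25 FPKM against 11.8 and 11.6 FPKM (0.64). All 3 were called higher by the median of ratios as well. Sesn2, the one called lower, was at -0.16, and 0 genes of the list were called lower in the fits without one library. Members of this list act for and against mTORC1, and its counts give no net direction.

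Among snoRNA host genes, whose spliced transcripts often carry a TOP motif but encode little or no protein, 7 of 12 tested were called lower and 1 higher, with a median of -0.24. Snhg12 had 19.8 and 20.7 FPKM in DMSO plus DEX and 13.2 and 11.3 FPKM in GA plus DEX (log2 fold change -0.69), Snhg18 had 20.2 and 18.5 FPKM against 12.9 and 10.8 FPKM (-0.66), and Snhg6 was at -0.34, whereas Snhg5 was higher at 0.31. By the median of ratios 7 were lower and 0 higher, with 0 higher at an unadjusted p under 0.05. Without DMSO plus DEX 1 the counts were 3 lower and 2 higher. Mitochondrial ribosomal protein genes differed in their values from the cytosolic ones, with 55 of 77 tested called higher and 2 lower (median 0.34), and with 23 higher and 9 lower by the median of ratios.

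Markers of other cell states also moved with GA. All 16 markers of mature adipocytes were called higher, their summed level being 108 and 111 FPKM in DMSO plus DEX and 7401 and 6472 FPKM in GA plus DEX, and all 17 osteoblast and osteocyte markers tested were called lower (94056 and 88202 FPKM against 42541 and 48444 FPKM). Of the macrophage markers 18 of 19 tested were called higher (4562 and 4326 FPKM against 6298 and 5471 FPKM), and of the osteoclast markers 8 of 9 (317 and 302 FPKM against 951 and 889.7 FPKM). The highest osteoblast and osteocyte gene alone held 50266 and 46072 FPKM in DMSO plus DEX, and 19240 and 23025 FPKM in GA plus DEX. By the median of ratios 16 adipocyte, 13 macrophage and 8 osteoclast markers were called higher, and 17 osteoblast and osteocyte markers lower. Of 11 stromal cell markers tested, 5 were called higher and 4 lower as deposited, and 4 and 5 by the median of ratios. The lymphoid and granulocyte, erythroid and endothelial lists summed to between 0.0 and 9.0 FPKM per library. None of the 20 macrophage or 10 osteoclast markers was at 0 in all libraries. In bulk samples fewer cells of a type and less RNA per cell cannot be told apart, and the part of these cell types in the ribosomal protein values was not tested.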

How the data were processed

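RNA of mBMSCs after 3 d in GA plus DEX or DMSO plus DEX was sequenced from mRNA selected with oligo(dT), with 2 libraries per group. The authors deposited FPKM values per Ensembl gene, 1 column per library, and column names equal the sample titles. Tools listed in the submitters' processing notes are HTSeq 0.6.1, TopHat2 2.0.12 and Bowtie2 2.2.3, with mm9 as the build. Nothing is stated of the strand setting, gene length and annotation release, and the handling of reads with several matches is not given in the sources used here. Because the annotation at hand was of a later build, coordinates are given only for sequences from RefSeq on GRCm38.p6. Symbols were found for 46488 of the 47069 identifiers.

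The depth of each library was taken from the step between low FPKM values, the value of 1 read, and gene lengths were then searched until the values gave whole reads (within 0.0001), which succeeded for all 23404 genes above 0. With 21559951 to 31069538 reads per library, counting error is small for these abundant genes, and the spread between libraries limits the comparison. Genes whose FPKM averaged 1 or more were tested with limma 3.58.1 (R 4.3.3) on log2(FPKM + 1) (eBayes with trend, two-sided, Benjamini-Hochberg over 12174 genes, called under 0.05). A fold change on this scale understates changes of low genes. The test was also run on simulated data with few genes changed and noise independent between genes. That setting lacks the shifts shared by many genes seen here, so no conclusion is drawn from it. Medians and counts over lists are descriptions without a test.

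Ribosomal protein genes and all lists were chosen with earlier results of these data known. The genes named are the 4 most abundant genes and the 4 largest changes in each direction of each subunit, the stalk, the 5S rRNA binders, Rps6, Rps27a, Rpsa, the paralogs and every gene called, and up to 3 genes per direction of each other list with a mean FPKM of at least 5. Rpl22, Rpl39 and the genes far apart in 1 library were named after their values were seen. Some genes that the rule covers are not reported here. Alternatives were other pseudocounts (0.1 and 5), no minimum or a minimum of 5 FPKM, a shift to a common median, median of ratios, quantile normalization, FPKM without the 10 most abundant genes, limma without the trend, each library left out, and the replicate number as a block. Limma voom on the recovered reads, the leaving out of Rpl12 and that of the genes far apart in 1 library were added after the data were seen. Plots were made in matplotlib 3.10.9.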

Additional observations from a re-analysis of the deposited data

How the results depend on the processing

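Scaling decided the counts of ribosomal protein genes called. Against 3 higher and 9 lower as deposited, the counts were 0 and 58 when libraries were shifted to a common median, 0 and 57 by the median of ratios, 1 and 37 after quantile normalization, 2 and 47 without the 10 most abundant genes, and 0 and 65 by voom on the recovered reads. With no minimum FPKM, when more genes shared the adjustment, 2 were higher and 1 lower. Over the fits without one library the number called higher ranged from 2 to 9 and the number called lower from 3 to 28. With a common median, the median of ratios, the 10 most abundant genes removed and voom, in this order, the median log2 fold change of the large subunit moved from -0.08 to -0.31, -0.30, -0.25 and -0.30, and that of the small subunit from -0.07 to -0.30, -0.29, -0.24 and -0.29. Without one library the medians ranged from -0.15 to 0.006 and from -0.14 to 0.01. The large minus small difference in mean change ranged from -0.08 to 0.009 without one library.

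Directions turned for Rplp2 (-0.033 with a common median, -0.022 by the median of ratios and -0.022 by voom), Rps27l (-0.23, -0.22, -0.22 and, after quantile normalization, -0.19), Rpl7l1 (-0.20, -0.18, -0.19 and, after quantile normalization, -0.18), Eif5a (-0.071, -0.061, -0.061 and, without the 10 most abundant genes, -0.015) and Pabpc1 (-0.040, -0.029 and -0.030), and for Rpl5 by voom (-0.18). Only turns in genes called as deposited or under the alternative are given. Genes called in neither fit also changed sign. With a common median Rpl5 was at -0.19 and Rpl11 at -0.18, against 0.05 for both as deposited. The common median, the median of ratios and the removal of the 10 genes lower every gene in GA plus DEX by construction. Of the other values for single genes and lists under an alternative, 936 were labelled unchanged. They kept their call status, or stayed within 1.5 times the count or the spread between libraries. The 936 include changes of sign in genes called in neither fit. Another 117 kept the direction and lost the call, and 69 kept the direction and gained a call. The remaining 166 were counts or medians of lists that moved further.

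Whether the replicate numbers pair the libraries is not stated. The deviations of same-numbered libraries had a correlation of -0.025 across all genes tested, which cannot settle it. With the replicate block 3 genes were called higher and 6 lower. Depth limits only Rpl24 and the untested paralogs. The 2 libraries per group, and the unlike GA plus DEX libraries, limit the rest.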
